A study of Mus musculus with 9 samples.

Results

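Quinones, aldehydes, ketones, enones and epoxides are reactive products of metabolism and of foreign compounds, and the liver holds a set of enzymes that reduce, oxidise or hydrolyse them. The transcripts of 10 such enzymes were taken from the table of gene counts by their symbols: Nqo1, Ephx1, Cbr1, Cbr3, Ptgr1, Akr1a1, Akr1b3, Akr1c13, Aldh1a1 and Aox1. All 10 were found among the 24411 genes of the table, and 9 passed the filter on low counts, which kept 11199 genes. Akr1b3 was the member that did not pass.

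The RNA came from 9 livers of mice on a C57BL/6 background at 3 months of age, in 3 groups of 3 livers. All carried Atg7 alleles flanked by loxP sites. The cont. mice (Atg7flox/flox) had no Cre, the Atg7-KO mice (Atg7flox/flox;Alb-Cre) had Cre under the albumin promoter, and the Atg7-KO;p62S351A mice, called S351A below, carried in addition p62S351A on both alleles. The study calls these mice hepatocyte-specific Atg7 knockouts. Which cells of these livers keep Atg7 was not measured here. The genotype entry names another residue of p62 for S351A replicates 2 and 3 than their titles do, and the titles were followed.

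ATG7 is an enzyme needed to form autophagosomes. Without it p62, encoded by Sqstm1, accumulates and binds KEAP1, the adaptor that marks the transcription factor NRF2 for degradation, and the serine replaced in p62S351A lies in the stretch that KEAP1 binds. NRF2 acts through the antioxidant response element, a short DNA motif, and Nqo1 is the gene by which its activity is most often read. The comparisons ask what loss of Atg7 in hepatocytes does to the enzyme transcripts, and how far a p62 with altered KEAP1 binding leaves them changed.

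Library totals were 1875325 to 15426575 counts in cont., 1945483 to 3675058 in Atg7-KO and 713841 to 792372 in S351A. Each S351A library was smaller than every other library, so depth and the p62 allele cannot be told apart by group. Atg7 itself was at 42.1 to 57.3 CPM (counts per 1e+06, on the scale of TMM factors) in the cont. livers, 27.8 to 29.9 in the Atg7-KO livers and 21.7 to 24.7 in the S351A livers. The 8 hepatocyte markers, which include Alb, Apoa1 and Ttr, summed to between 49225 and 105454 CPM in cont., 34546 and 41325 in Atg7-KO, and 32569 and 45790 in S351A, and 6 of 8 were called lower in Atg7-KO than in cont. Markers of ductular cells summed to 47.5 to 82.7 CPM in cont., 831 to 1225 in Atg7-KO and 732 to 1202 in S351A, and all 7 tested were higher in Atg7-KO than in cont. Those of stellate cells and matrix summed to 290 to 590, 1311 to 1767 and 1195 to 1706 CPM in the same order, with 6 of 8 higher. The macrophage markers summed to 217 to 325, 287 to 379 and 257 to 283 CPM, with 4 of 8 higher and 1 lower. Erythroid markers summed to 210 to 847 CPM in cont., 83.6 to 189 in Atg7-KO and 127 to 198 in S351A, without overlap with cont., and 1 of the 2 tested (Hba-a2) was lower in Atg7-KO. Endothelial sums overlapped in all groups (101 to 192, 132 to 158 and 111 to 151 CPM), with 1 of 6 higher and 2 lower. The 4 markers of T and B cells, none of which passed the filter, summed to 2.76 to 6.29 CPM in cont., 7.72 to 8.98 in Atg7-KO and 3.42 to 7.40 in S351A, from 54, 78 and 14 counts in all. In whole liver, fewer cells of a type and less RNA per cell cannot be told apart, and the part of these cells in the results below was not tested. By Xist and 4 Y-linked genes, 2 of 3 cont. livers and 1 of 3 in each of the other groups were male.

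A gene was called when edgeR's quasi-likelihood test gave an adjusted p under 0.05 (Benjamini-Hochberg, over all 11199 genes) and a fold change above 1.5. In Atg7-KO against cont., 19.9% of all tested genes were called higher and 18.1% lower. Of the 9 tested members, 6 were called higher (Nqo1, Cbr3, Cbr1, Ephx1, Akr1c13 and Ptgr1) and 0 lower, where 2 had an unadjusted p under 0.05 in that direction (Akr1a1 and Aox1), and DESeq2 and limma-voom likewise called 6, where they called 19.8% and 22% of all tested genes higher and 16.9% and 18.2% lower. The median log2 fold change was 1.32 over the members and -0.03 over all tested genes. In S351A against Atg7-KO, 0% of tested genes were called higher and 0.00893% lower. All 9 members had a lower fitted level there, with a median of -0.49 against 0.01 over all genes, and 0 were called by edgeR. In S351A against cont., 15.6% of genes were called higher and 13% lower. Of the members 3 were called higher (Nqo1, Cbr3 and Cbr1) and 0 lower, with a median of 0.58 against -0.03. Of the lower ones 2 had an unadjusted p under 0.05 (Akr1a1 and Aox1), and DESeq2 called 4 members (Ptgr1 added) and limma-voom 3, all higher, where 16.4% and 16% of all tested genes were called higher and 12.4% and 10.7% lower. The 3 comparisons share libraries, so their values are set side by side and are not independent.

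**Figure D1:**
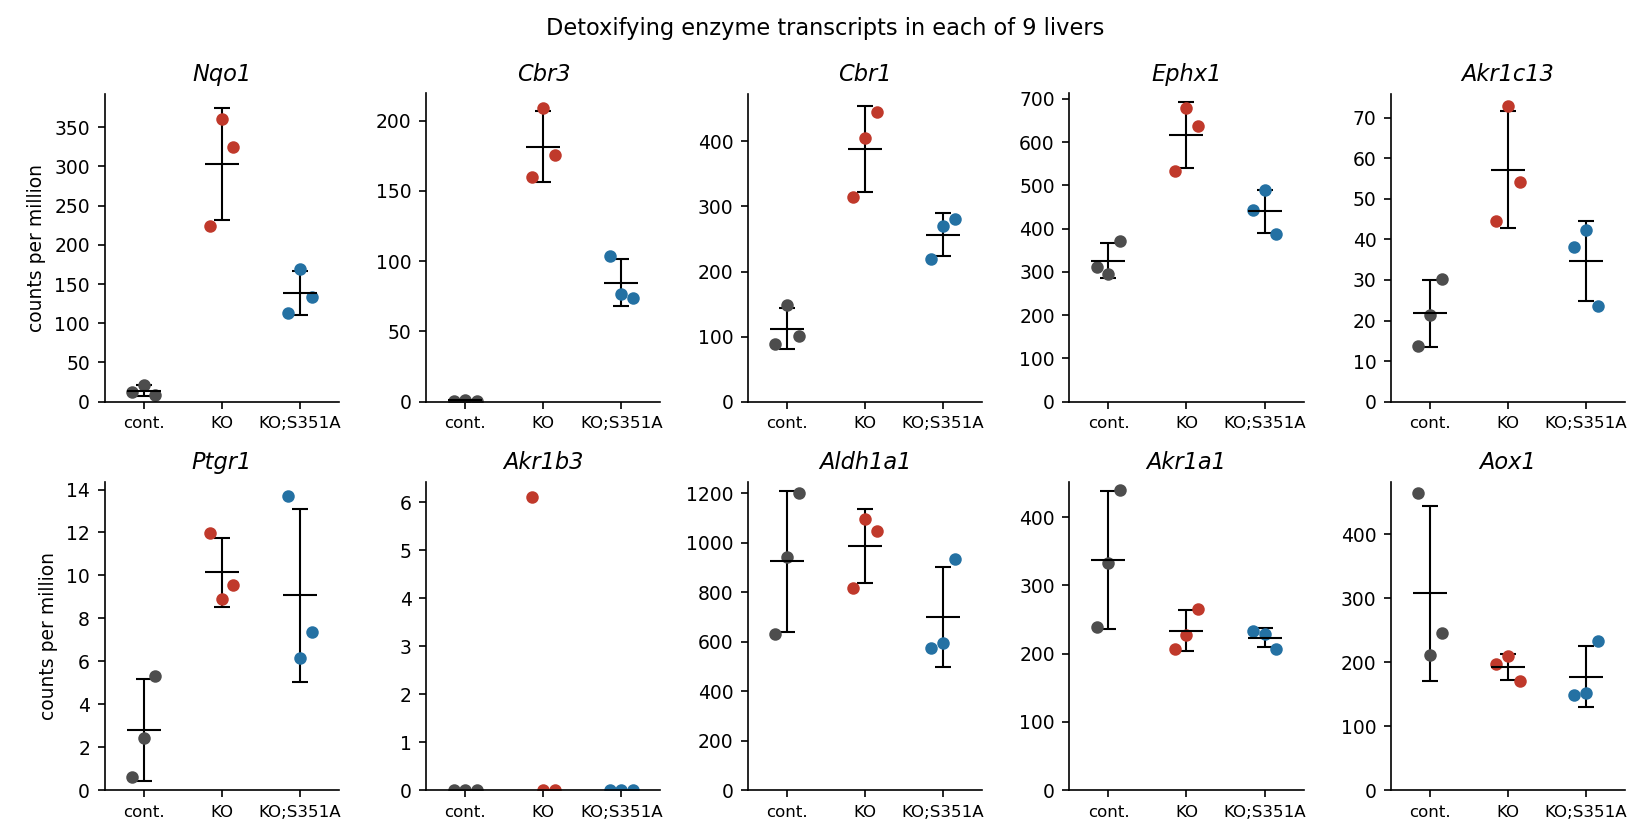
CPM (linear axes from 0) of the 10 enzyme transcripts in cont., Atg7-KO (KO) and S351A (KO;S351A) livers, one point per library, with black lines for the mean and SD of 3 libraries (none for Akr1b3, whose reads could not be assigned). Nqo1, Cbr3, Cbr1 and Ephx1 lie highest in Atg7-KO, lowest in cont. and between them in S351A with no overlap of any groups, while Aldh1a1, Akr1a1 and Aox1 do not show that order.

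Promoters of 9 members matched by symbol in the RefSeq table used (GRCm38.p6), with 2 start sites for Aldh1a1, which gave 10 windows. Akr1b3 had no entry. Each window runs from 250 bases before to 50 bases after the start site. They were searched on both strands for the core of the antioxidant response element, TGACNNNGC, for its variant TGAGNNNGC, for the TATA box TATAAA and for the GC box GGGCGG. The first was present in 12.4% and the second in 17.6% of the 32851 promoters of that table, TATAAA in 13.6% and GGGCGG in 35.7%. The 4 below belong to the 3 members that were called higher than cont. in both mutant groups (Nqo1, Cbr3 and Cbr1) and to Akr1c13, the one called member with a variant element in its window. Capitals mark matches to any of the 4 motifs.
Nqo1: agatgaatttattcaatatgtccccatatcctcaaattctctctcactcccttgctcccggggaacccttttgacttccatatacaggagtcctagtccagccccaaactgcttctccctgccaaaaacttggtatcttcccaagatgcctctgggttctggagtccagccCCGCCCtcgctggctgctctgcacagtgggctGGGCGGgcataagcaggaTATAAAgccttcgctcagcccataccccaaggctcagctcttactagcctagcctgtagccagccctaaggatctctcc
Cbr3: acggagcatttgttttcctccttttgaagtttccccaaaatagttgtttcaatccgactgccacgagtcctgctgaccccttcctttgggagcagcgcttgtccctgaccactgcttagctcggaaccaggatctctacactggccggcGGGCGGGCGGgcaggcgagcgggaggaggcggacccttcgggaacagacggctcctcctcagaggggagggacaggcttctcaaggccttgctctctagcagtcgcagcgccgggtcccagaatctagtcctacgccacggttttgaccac
Cbr1: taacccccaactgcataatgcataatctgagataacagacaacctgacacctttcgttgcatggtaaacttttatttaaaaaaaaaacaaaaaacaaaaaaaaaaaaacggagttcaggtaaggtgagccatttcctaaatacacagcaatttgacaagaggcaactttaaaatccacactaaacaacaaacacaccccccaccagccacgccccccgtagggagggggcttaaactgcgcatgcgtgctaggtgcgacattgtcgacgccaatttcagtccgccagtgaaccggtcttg
Akr1c13: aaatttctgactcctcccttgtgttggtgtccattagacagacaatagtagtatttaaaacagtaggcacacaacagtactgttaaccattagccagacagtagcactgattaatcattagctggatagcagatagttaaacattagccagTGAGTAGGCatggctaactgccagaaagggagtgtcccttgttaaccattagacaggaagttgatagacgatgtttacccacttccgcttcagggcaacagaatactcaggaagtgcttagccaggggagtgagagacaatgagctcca

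The windows lie at chr8:107403156-107403455 (minus strand) for Nqo1, chr16:93682969-93683268 (plus strand) for Cbr3, chr16:93607587-93607886 (plus strand) for Cbr1 and chr13:4190937-4191236 (plus strand) for Akr1c13. TGACNNNGC was found in 0 of the 10 windows. TGAGNNNGC was found in Akr1c13, from 99 to 91 bases before the start site, and before the second start site of Aldh1a1. The Nqo1 window held TATAAA from 29 to 24 bases before the start and a GC box on each strand. The Cbr3 window held 2 overlapping GC boxes and no TATAAA, and the Cbr1 window held none of the 4 motifs. The start site of that window, base 93607837, is also the start of the GENCODE protein-coding transcript Cbr1-201, but lies 1984 bases inside the GENCODE gene. The Ephx1 start site is likewise that of Ephx1-201 and lies 3335 bases inside its gene. The bases before these gene starts were not searched. No match says only that these letters are not in these 300 bases.

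Nqo1 (chromosome 8, 107388225 to 107403206 of mm10, minus strand) encodes NAD(P)H quinone dehydrogenase 1, which reduces quinones by 2 electrons to hydroquinones and so avoids semiquinone radicals. Its level in the cont. libraries was 12.6, 21.3 and 8.45 CPM. In Atg7-KO it was 224, 361 and 325 CPM, and in S351A 113, 169 and 134 CPM. Every Atg7-KO liver lay above every S351A liver, and every S351A liver above every cont. liver. The rise in Atg7-KO over cont. was 4.46 on the log2 scale (SE 0.36, 21.9-fold, edgeR adjusted p = 4.69e-06), the S351A livers were 3.32 above cont. (SE 0.35, adjusted p = 6.20e-05), and between S351A and Atg7-KO the difference was -1.13 (SE 0.32, 95% interval -1.82 to -0.45, adjusted p = 0.467).

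Ptgr1 (chromosome 4, 58965439 to 58987119, minus strand) encodes prostaglandin reductase 1, which reduces the double bond of enones, among them oxidised prostaglandins and lipid peroxidation products. It was scarce in cont., with 1, 7 and 60 counts, or 0.631, 2.45 and 5.34 CPM. The Atg7-KO livers had 11.98, 8.91 and 9.54 CPM, all above cont., and the S351A livers 13.7, 6.16 and 7.35 CPM from only 12, 5 and 6 counts. In Atg7-KO it rose by 1.53 on the log2 scale (SE 0.46, 2.88-fold, adjusted p = 0.0192), a call that was lost without Atg7-KO replicate 1 (adjusted p = 0.0819). The size of the rise was uncertain, since cont. replicate 3 held 60 of the 68 cont. counts. It was 2.499 without that library and lay between 1.24 and 2.79 over all alternatives. In S351A it was 1.37 above cont. (SE 0.55, adjusted p = 0.0805), and it was called there without cont. replicate 3 (2.33, adjusted p = 0.0147). The interval of S351A against Atg7-KO ran from -1.27 to 0.95, so neither a fall nor a rise was detectable at this depth.

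The carbonyl reductases Cbr1 and Cbr3 belong to the short-chain dehydrogenase family and reduce ketones and quinones with NADPH. They lie 72.7 kb apart on the plus strand of chromosome 16, Cbr1 at 93605853 to 93610505 and Cbr3 at 93683215 to 93690990. Cbr3 was close to absent in cont., with 1, 4 and 7 counts, or 0.631, 1.40 and 0.623 CPM. It stood at 160, 209 and 176 CPM in Atg7-KO and at 104, 76.4 and 73.5 CPM in S351A. No 2 groups overlapped. The log2 fold change of Atg7-KO over cont. was 7.76 (SE 0.34, adjusted p = 2.39e-07), the lowest adjusted p among the members. With 1666 counts in Atg7-KO against 12 in cont., the ratio of pooled rates was 233 (exact 95% interval 133 to 452, counting error only). S351A stood 6.66 above cont. (SE 0.35, adjusted p = 1.63e-06).

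Cbr1 already had 88.4, 148 and 101 CPM in cont. It had 315, 405 and 445 CPM in Atg7-KO and 219, 270 and 281 CPM in S351A. The order of the 3 groups was that of Cbr3, again without overlap, over a narrower range. Cbr1 rose by 1.79 in Atg7-KO (SE 0.25, 3.45-fold, adjusted p = 0.000201) and was 1.19 above cont. in S351A (SE 0.25, 2.28-fold, adjusted p = 0.00442). Of the protein-coding genes annotated between these neighbours, Gm5678 was not among the tested genes.

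Ephx1 (chromosome 1, 180976210 to 181020904, minus strand) encodes microsomal epoxide hydrolase, which turns epoxides into diols. Its levels were 311, 294 and 372 CPM in cont., 533, 679 and 637 in Atg7-KO and 443, 488 and 388 in S351A. The groups did not overlap, though the highest cont. liver (372) and the lowest S351A liver (388) nearly met. It rose in Atg7-KO by 0.92 (SE 0.22, 1.89-fold, adjusted p = 0.00515). In S351A it was 0.43 above cont. (SE 0.22, 95% interval -0.04 to 0.90, adjusted p = 0.154), which did not pass.

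Among the aldo-keto reductases, Akr1c13 (chromosome 13, 4191150 to 4205596, plus strand) encodes an enzyme that reduces ketones and oxidises hydroxysteroids and other alcohols. It was at 13.6, 21.3 and 30.3 CPM in cont., 44.6, 73.0 and 54.1 in Atg7-KO and 38.2, 42.4 and 23.5 in S351A. Each Atg7-KO liver lay above all others, and S351A overlapped cont. Its rise in Atg7-KO was 1.32 (SE 0.29, 2.49-fold, adjusted p = 0.00361). S351A against cont. gave 0.58 (SE 0.32, adjusted p = 0.198). The neighbouring Akr1c12 shared 17.3% of the 75-base windows of the Akr1c13 transcript exactly, 75 bases being the read length, and the counts of both were not whole, since the authors' estimate divided such reads. The share given to Akr1c13 out of both was 34.7% to 39.2% in cont., 58.3% to 62.3% in Atg7-KO and 58.1% to 74.4% in S351A. With the reads of both added, a step chosen after seeing the data, the level was 34.7, 55.9 and 87.4 CPM in cont. against 76.5, 117 and 92.2 in Atg7-KO, which overlapped. The sum gave 0.65 (SE 0.30, 1.57-fold, adjusted p = 0.103), so the call belongs to Akr1c13 as the authors separated it from Akr1c12. Akr1c12 alone differed by -0.04 (SE 0.30, adjusted p = 0.933). For the sum, S351A against cont. turned to -0.25 (adjusted p = 0.606).

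Akr1b3 (chromosome 6, 34302434 to 34317478, minus strand) encodes the mouse aldose reductase, which reduces glucose and many aldehydes. It was listed at 0 in 8 libraries and at 26.56 counts in Atg7-KO replicate 1. Gm6644, a processed pseudogene of it on chromosome 1 (55444074 to 55445024), held 7, 9 and 80 counts in cont., 29.44, 61 and 55 in Atg7-KO and 13, 13 and 8 in S351A. Of the 75-base windows of the Akr1b3 transcript, 49.7% occur exactly in Gm6644 and 74.5% in Gm38056. The latter overlaps all of Gm6644 on the opposite strand. With Gm6736 and Gm12138 included, 80.2% occur in another annotated gene. In Atg7-KO replicate 1 the counts of the 2 genes were not whole and their sum was 56. The value of 0 is therefore not read as absence of the transcript. Added together, they stood at 4.42, 3.15 and 7.11 CPM in cont., 12.9, 21.7 and 25.0 in Atg7-KO and 14.8, 16.03 and 9.80 in S351A. Both mutant groups lay above cont. without overlap. The sum, again chosen after seeing the data, was 1.86 higher in Atg7-KO than in cont. (SE 0.35, 3.64-fold, adjusted p = 0.00141) and 1.34 higher in S351A (SE 0.42, adjusted p = 0.0313). How much of it came from either gene, or from Gm38056 and the others, whose counts were not added, cannot be told from these counts.

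**Figure D2:**
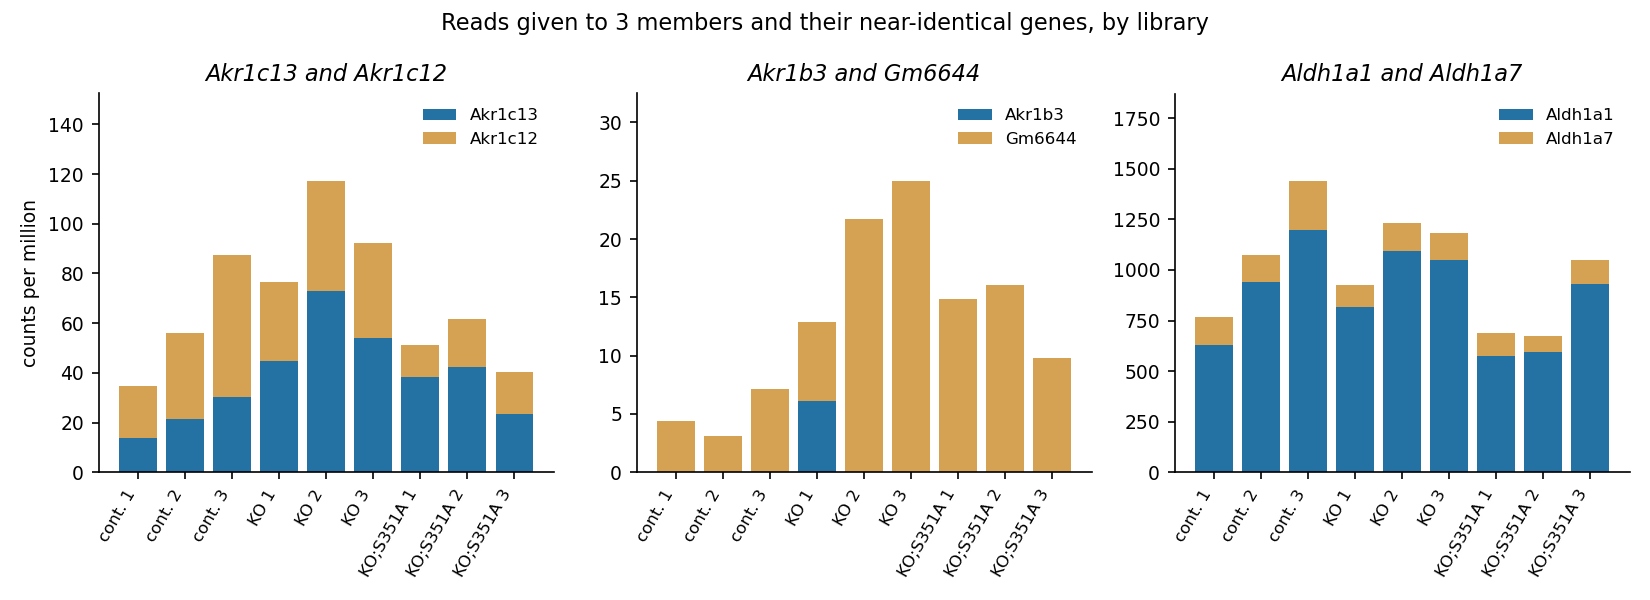
CPM in each library for 3 members (blue), each stacked with a gene that shares read-length sequence with it (ochre). Akr1c13 takes 34.7% to 39.2% of its pair in cont. and more in all 6 other libraries, Akr1b3 takes reads in 1 of 9 libraries, and Aldh1a1 takes most of its pair in every library.

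Akr1a1 (chromosome 4, 116636510 to 116651680, minus strand) encodes aldehyde reductase, an abundant enzyme of the kidney and liver that also serves the synthesis of ascorbate in mice. Its levels were 239, 333 and 439 CPM in cont., 207, 228 and 266 in Atg7-KO and 233, 229 and 207 in S351A. The lowest cont. liver lay within the Atg7-KO range and just above the S351A range. The fitted difference in Atg7-KO was -0.53 (SE 0.24, adjusted p = 0.0997) and in S351A -0.60 (SE 0.24, adjusted p = 0.0852). Without cont. replicate 1 it was called lower in both (-0.75, adjusted p = 0.0185, and -0.82, adjusted p = 0.0169), and with libraries scaled by their totals the Atg7-KO value became 0.02. Over all alternatives the value of S351A against cont. lay between -0.82 and -0.10.

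Aldh1a1 (chromosome 19, 20492715 to 20643465, plus strand) encodes a cytosolic dehydrogenase that oxidises retinal and other aldehydes to acids. Its levels were 631, 942 and 1199.95 CPM in cont., 817, 1094 and 1048 in Atg7-KO and 575, 594 and 932 in S351A. All groups overlapped. The Atg7-KO value was 0.09 above cont. (SE 0.29, 95% interval -0.54 to 0.73, adjusted p = 0.837), and S351A was at -0.40 (SE 0.29, adjusted p = 0.331). Scaled by library totals, these became 0.64 (adjusted p = 0.0811) and 0.11 (adjusted p = 0.795). It shares 2.19% of its 75-base windows with its neighbour Aldh1a7, and adding the reads of Aldh1a7 gave 0.03 and -0.45.

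Aox1 (chromosome 1, 58029931 to 58106413, plus strand) encodes an aldehyde oxidase, an enzyme with a molybdenum cofactor that oxidises aldehydes and nitrogen heterocycles. It was at 465, 212 and 246 CPM in cont., 198, 209 and 170 in Atg7-KO and 148, 152 and 233 in S351A. The cont. livers were above the Atg7-KO livers, though 2 of 3 by little (212 against 209 at the nearest). The Atg7-KO difference was -0.67 (SE 0.30, adjusted p = 0.0977), and that of S351A -0.79 (SE 0.31, adjusted p = 0.0721). Without cont. replicate 1, the highest of all, the values were -0.27 and -0.39, and with libraries scaled by their totals -0.16 and -0.32. Without cont. replicate 2, Aox1 was called lower in both (-0.88, adjusted p = 0.0372, and -1.01, adjusted p = 0.0292). Leaving out cont. replicate 3 or S351A replicate 3 gave the call for S351A against cont. as well (-0.94, adjusted p = 0.0495, and -1.05, adjusted p = 0.0348). Without a filter on low counts it was called lower in both comparisons (-0.71, adjusted p = 0.0479, and -0.88, adjusted p = 0.0164), where 13% and 10.7% of all genes were called lower and 14.2% and 11.3% higher.

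In Atg7-KO against cont., 6 members were higher in every Atg7-KO library than in any cont. library, as were 26.7% of all tested genes, and 1 (Aox1) was lower in the same way, as were 24.9%. For S351A against cont. the members were 5 and 1 (Akr1a1, with 233 CPM in the highest S351A liver and 239 in the lowest cont. liver), and the shares of all genes 19.5% and 18.4%. The scaling of the libraries mattered for both comparisons. Scaling by library totals in place of TMM factors shifted the median over tested genes by 0.54 for Atg7-KO against cont., and turned 2226 genes called higher and 2028 lower into 4284 and 801. The corresponding shift in S351A against cont. was 0.49, with 1746 and 1460 calls turned into 3498 and 512. The 6 calls of Atg7-KO stood under that scaling, and in S351A Ephx1, Ptgr1 and Akr1c13 were added to Nqo1, Cbr1 and Cbr3.

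**Figure D3:**
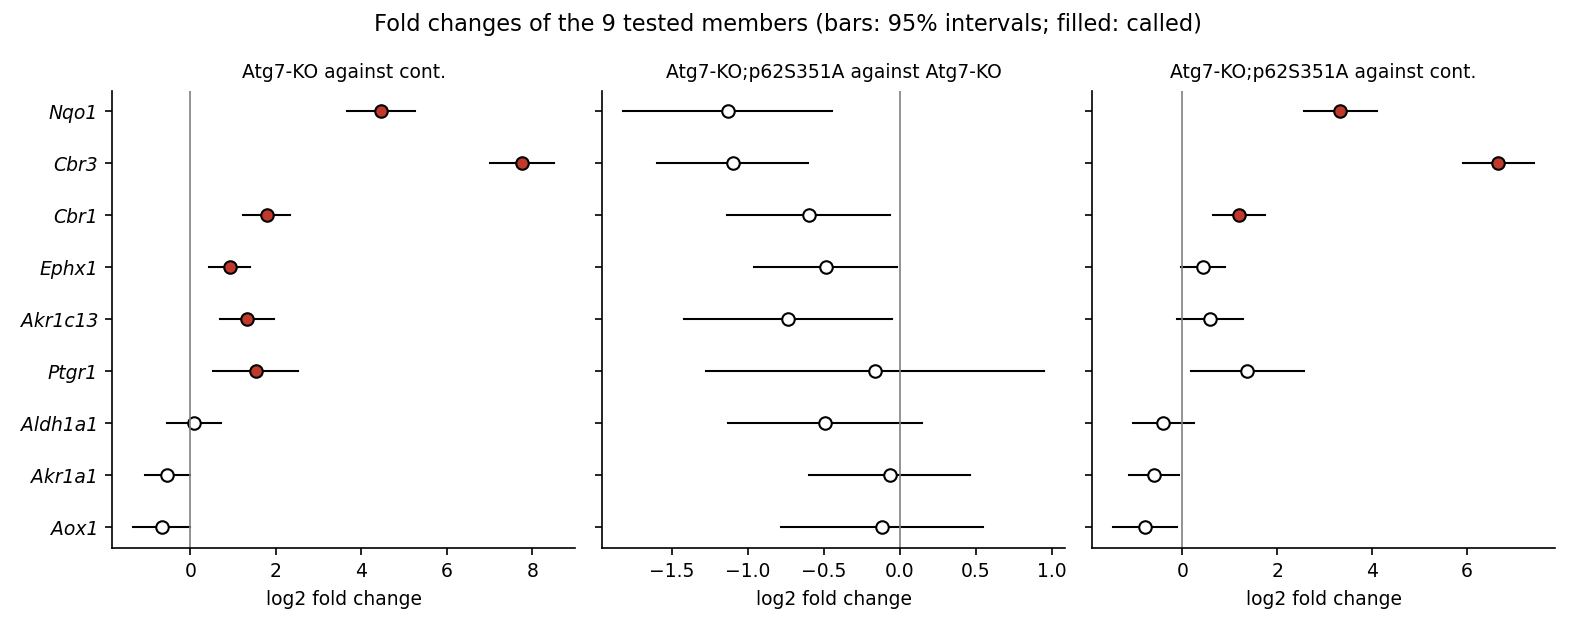
Log2 fold changes of the 9 tested members in the 3 comparisons, with 95% intervals from edgeR and filled points for calls (the scales of the panels differ). The Atg7-KO panel has 6 filled points from 0.92 (Ephx1) to 7.76 (Cbr3), the middle panel has none and all points below 0, and the panel of S351A against cont. has 3.

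Between the 2 groups with Alb-Cre, the p62 allele was the labelled difference. Members whose S351A libraries all lay below all Atg7-KO libraries numbered 5 (Nqo1, Cbr3, Cbr1, Ephx1 and Akr1c13), against 9.24% of all tested genes, while 7.63% of genes lay wholly above. The same 5 had an unadjusted p under 0.05, as 3.22% of tested genes did in that direction and 3.38% in the other. None passed after adjustment by edgeR, where the member with the lowest adjusted p was Cbr3 at -1.10 (SE 0.23, 95% interval -1.60 to -0.60, adjusted p = 0.312). DESeq2 called 1 member, Cbr3 (-1.10, adjusted p = 0.00793), and gave Nqo1 an adjusted p of 0.109, where it called 0.188% of all tested genes higher and 0.161% lower, and limma-voom called 0 of all genes. The unfiltered edgeR fit called Nqo1 and Cbr3 (adjusted p = 0.0186 and 0.0107), and 0.32% of its 19081 genes higher and 0.194% lower. With every library thinned to 713835 counts, the size of the smallest, Nqo1 was at -1.12 and Cbr3 at -1.09, and with sex as a covariate at -1.11 and -1.10, with 0 members called in either fit.

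The other values of this comparison were -0.60 for Cbr1 (95% interval -1.14 to -0.06), -0.49 for Ephx1 (-0.96 to -0.02), -0.74 for Akr1c13 (-1.42 to -0.05), -0.49 for Aldh1a1 (-1.13 to 0.14), -0.12 for Aox1 (-0.78 to 0.55) and -0.06 for Akr1a1 (-0.60 to 0.47). The first 3 of these intervals exclude 0 before adjustment for the number of genes tested. For the last 3 they include it, and the p that missed the threshold does not show that the levels were alike. Between these groups the summed hepatocyte, ductular, stellate and matrix, endothelial and erythroid markers overlapped, while the macrophage sums (257 to 283 CPM in S351A, 287 to 379 in Atg7-KO) were lower in S351A without overlap. Those of T and B cells were too few to compare, with 14 counts over 3 S351A libraries. No tested marker was called by edgeR. Those with an unadjusted p under 0.05 were Col3a1 (-0.61, adjusted p = 0.695), Lyve1 (-0.70, adjusted p = 0.715) and the ductular Cftr (-1.09, adjusted p = 0.742), all lower in S351A without overlap, as were Col1a2 and Cd5l, while Apoa1 was higher in that way. Of all tested genes, 9.24% were lower and 7.63% higher without overlap, and 3.22% and 3.38% had an unadjusted p under 0.05. The part of these markers in the values of the members was not tested.

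Per kilobase of annotated exon, a scale on which genes can be compared, the order of mean levels in cont. was Aldh1a1 (187 ± 57.7 CPM per kb, SD, n = 3), Ephx1 (167 ± 21.1), Akr1a1 (123 ± 36.5), Cbr1 (44.0 ± 12.4), Aox1 (35.4 ± 15.8), Akr1c13 (15.2 ± 5.84), Nqo1 (9.10 ± 4.23), Ptgr1 (1.22 ± 1.03) and Cbr3 (0.705 ± 0.355). Neighbours among the first 3, neighbours from Cbr1 to Nqo1, and Ptgr1 and Cbr3 did not differ beyond these SDs, though by transcript length Aox1 (69.5 ± 31.0) and Akr1c13 (17.2 ± 6.63) did. Per kilobase, Nqo1 was at 195 ± 45.9 in Atg7-KO and 89.2 ± 18.2 in S351A, and Cbr3 at 145 ± 20.01 and 67.5 ± 13.3. The order depends on the length used, since the annotated exons of Cbr1, Akr1a1, Aldh1a1 and Aox1 add up to far more than their longest protein-coding transcript (2554, 2750, 4937 and 8690 bases against 1237, 1420, 2358 and 4423). By exon length Ephx1 led in Atg7-KO (316 ± 38.7), and by transcript length, a measure added after seeing the data, Aldh1a1 did (418 ± 63.0). Nqo1 held place 7 in cont. by both lengths, place 3 or 4 in Atg7-KO and place 4 or 5 in S351A. Cbr3 held place 9 in cont. by both, and place 5 or 6 in Atg7-KO and 6 in S351A.

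The members belong to 6 enzyme families, for which 77 symbols were listed. Of these, 74 were among the counted genes and 60 were tested. Without the members, 51 were tested, and in Atg7-KO 9 were called higher and 25 lower (17.6% and 49.0%, against 19.9% and 18.1% of all tested genes), with a median of -0.70. These counts depend on the scaling. By library totals, an alternative added for them after seeing the data, they were 10 and 12 (19.6% and 23.5%, against 38.3% and 7.15% of all tested genes), with a median of -0.14 against 0.51 over all genes. In S351A against Atg7-KO, 0 of the 51 were called by edgeR, and 2 had an unadjusted p under 0.05 as higher and 5 as lower. In S351A against cont., 7 were called higher and 28 lower (13.7% and 54.9%, against 15.6% and 13% of all tested genes), and by library totals 8 and 13 (15.7% and 25.5%, against 31.2% and 4.57%). The family counts that follow are on the TMM scale. By library totals the genes called lower in Atg7-KO were 3 short-chain carbonyl reductases, 1 aldo-keto reductase, 5 aldehyde dehydrogenases and 3 molybdenum genes, and Zadh2 and Ephx2 were no longer among them.

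Of the 8 tested quinone and enone reductases, 4 rose and 1 fell in Atg7-KO. Besides Nqo1 and Ptgr1, these were Txnrd1, cytosolic thioredoxin reductase (mean of 96.7 CPM in cont., of 266 in Atg7-KO livers and of 158 in S351A, log2 fold change 1.46, adjusted p = 0.000437), and Vat1, a quinone reductase homologue (0.90, adjusted p = 0.00398). Zadh2, a prostaglandin reductase, fell by 1.13 (adjusted p = 0.00321). Nqo2, the relative of Nqo1 that uses dihydronicotinamide riboside, stood at 113 CPM in cont. and 77.2 in Atg7-KO (-0.56, adjusted p = 0.0580).

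Of the 10 tested carbonyl reductases of the short-chain family, Cbr1 and Cbr3 were the 2 that rose, and 5 fell. Those were Dcxr, which reduces xylulose and dicarbonyls (150 CPM in cont. and 28.5 in Atg7-KO, -2.41, adjusted p = 2.41e-05), Dhrs1, Dhrs4, Dhrs11 and Hsd11b1, which activates glucocorticoids (-1.16, adjusted p = 0.00188). Cbr4 was at 14.6 CPM in cont. and 9.44 in Atg7-KO, and did not pass.

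Of 14 tested aldo-keto reductases 5 rose and 2 fell. Akr1b7, at 0 to 4 counts in cont., had 100, 155 and 116 counts in Atg7-KO and 6, 40 and 23 in S351A, and Akr1b10 rose by 2.09 (adjusted p = 0.000723). Both lie beside Akr1b3 within 121 kb of chromosome 6, where Akr1b8 was at 0.05 (adjusted p = 0.940). In the run of 9 Akr1c and Akr1e genes over 560 kb of chromosome 13, Akr1c19, 2 places from Akr1c18 and next to Akr1c13, rose by 1.78 (adjusted p = 0.000165). Akr1c18, a 20-alpha-hydroxysteroid dehydrogenase, rose from a mean of 0.0296 CPM to 10.6 (adjusted p = 0.000111), while Akr1c14 (-0.99, adjusted p = 0.00464) and Akr1c6 (-1.68, adjusted p = 0.00201) fell. Both directions thus occurred within one gene cluster.

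Of 15 tested aldehyde dehydrogenases 3 rose and 9 fell. Aldh2, the mitochondrial enzyme that clears acetaldehyde, went from 1460 CPM in cont. to 403 in Atg7-KO (-1.86, adjusted p = 0.000366), and Aldh1l1, Aldh4a1, Aldh5a1, Aldh6a1, Aldh7a1, Aldh8a1, Aldh9a1 and Aldh16a1 were called lower as well. Aldh1b1 (1.64) and Aldh3b1 (2.42) were called higher, as was the scarcer Aldh18a1. Of the 10 molybdenum enzymes and genes of cofactor synthesis, 7 fell and 0 rose, with 0 at an unadjusted p under 0.05 as higher. Aox3, a related aldehyde oxidase, fell by 3.09 (702 to 82.7 CPM, adjusted p = 0.000114), and Suox, Marc1, Marc2, Mocs1, Mocs2 and Gphn were the others. Of 3 tested epoxide hydrolases, Ephx1 rose and Ephx2, the soluble enzyme, fell by 1.01 (adjusted p = 0.00319).

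**Figure D4:**
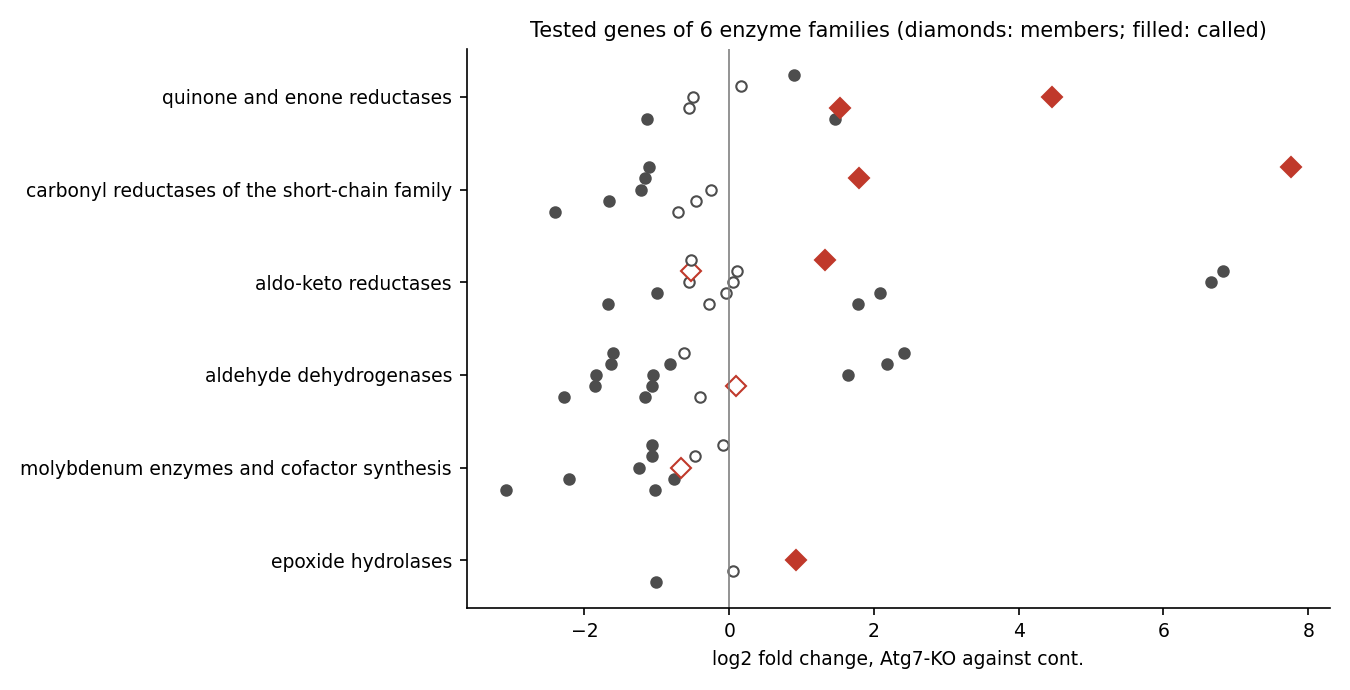
Log2 fold change in Atg7-KO against cont. of the 60 tested genes of 6 enzyme families, with members as red diamonds, other genes as grey circles, and filled marks for calls. Members occupy the right side of the quinone, short-chain and epoxide rows, whereas 9 of 15 aldehyde dehydrogenases and 7 of 10 molybdenum genes are filled to the left of 0.

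Over the 9 libraries, the genes whose log2 CPM followed Nqo1 most closely among 8791 genes were Phf11d (Pearson r = 0.992), Gss, the glutathione synthetase (0.991), Lgals3 (0.991), Stmn1 (0.991) and Cln6 (0.990). These values are descriptive, and their points are the same 9 libraries in 3 groups of 3. Of the genes of the pathway itself, Nfe2l2, which encodes NRF2, was at 84.0, 104 and 144 CPM in cont. and 49.3, 83.4 and 63.2 in Atg7-KO (-0.77, adjusted p = 0.0782), Keap1 was at 0.28 (adjusted p = 0.335), and Sqstm1 was at 404, 474 and 384 CPM in cont., 478, 571 and 591 in Atg7-KO and 404, 377 and 434 in S351A (0.38 in Atg7-KO, adjusted p = 0.169).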

How the data were processed

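Poly(A) RNA of 9 livers was sequenced by the study in single 75-base reads, which the authors mapped to mm10 with STAR and quantified with RSEM. Values in the deposited table are expected counts, estimated read numbers per gene that were not scaled between libraries. They were rounded here for the tests, while the CPM printed per library and group used them unrounded. Annotation and strand setting are not given in the sources used here. The labels name RNeasy for RNA extraction and the study's methods TRIzol. Libraries were grouped by title, and 0 columns were left unused.

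edgeR 4.0.16 (R 4.3.3) was used with filterByExpr (minimum count 10, total 15), TMM factors and 1 quasi-likelihood model of the 3 groups over all 9 libraries. Log2 CPM used a prior count of 2. SEs and intervals follow from the F test. Replicates were biological, and floors and intervals cover counting error only where stated. The script was tested on simulated counts. Alternatives used DESeq2 1.42.0, limma 3.58.1 (voom), other scalings, filters, thresholds and covariates, thinning and leaving out each library. For pairs of replicates the mean chi-square per gene was 2.29 to 117, where counting noise gives 1. Same-numbered libraries of cont. and S351A deviated together (r = 0.160 to 0.235). For Atg7-KO, r was 0.0738 to 0.306 with S351A and -0.0415 to 0.248 with cont., not over 0.1 in every pair, so numbers were not taken to pair those.

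Exon lengths, positions and shared 75-base windows came from GENCODE M21 (mm10), promoters from RefSeq (GRCm38.p6). All 10 members were named, other family genes were named when called in Atg7-KO with a mean of 10 CPM or more, with a few others chosen for comparison after their values were seen, and the 5 genes most like Nqo1 by Pearson r. The members and lists were chosen with earlier results of these data known.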

Additional observations from a re-analysis of the deposited data

How the results depend on the processing

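The number of members called in Atg7-KO against cont., 6, stayed between 4 and 8 under all alternatives (4 at an adjusted p under 0.01 and a fold above 2, which Ephx1 and Ptgr1 did not reach, and 4 with at least 10 counts required in every library, where Cbr3 and Ptgr1 were not tested), and between 5 and 7 when single libraries were left out. The 8 came from the fit without a filter on low counts, which called 14.2% of all its genes higher and 13% lower. It added Aox1, called lower, and Akr1b3, whose reads could not be assigned. Where 7 were called, the added member was Akr1a1 or Aox1, called lower. In S351A against Atg7-KO it was 0 in edgeR's fit and 0 without each single library in turn, but 1 with DESeq2, which called 21 genes higher and 18 lower in all, and 2 without a filter on low counts, where 61 and 37 were called. In S351A against cont. it was 3, where 1746 genes were called higher and 1460 lower in all. Under total library size it was 6, where 3498 and 512 genes were called. It was also 6 when the 20 most abundant genes were left out of that size, where 3040 and 638 were called. When single libraries were left out it was 3 to 5, with 5 members without cont. replicate 3 (Ptgr1 and Aox1 added). With the replicate number as a block the counts of members were 6, 0 and 3, the same as without it. Calls over all genes were not counted for the block or for single libraries left out. In 13 of 18 cases a library correlated best with its own number among the 3 libraries of another group. All replicates 1 were male and all replicates 2 female, so number and sex cannot be fully told apart.

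Signs turned only in members that were not called. Akr1a1 in Atg7-KO against cont. became 0.0159 under total library size. In S351A against Atg7-KO it lay between -0.154 and 0.0348 when single libraries were left out, the latter without Atg7-KO replicate 3. Aldh1a1 in Atg7-KO against cont. became -0.0163 with sex as a covariate and lay between -0.139 (without cont. replicate 1) and 0.320 when single libraries were left out, with 0.640 under total library size, and in S351A against cont. 0.108 under total library size and 0.00282 without the 20 top genes. Ptgr1 in S351A against Atg7-KO lay between -0.596 and 0.0480, the latter without S351A replicate 2. Akr1c13 in S351A against cont. became -0.246 when its counts were summed with those of Akr1c12. The cause was not tested. Of the 533 values of single members in refits at the thresholds of the report, other than the one with summed counts, 505 kept sign and call, 20 gained a call, 1 lost it (Ptgr1 without Atg7-KO replicate 1) and 7 changed sign. At 713841 to 792372 counts, 3 counts in an S351A library equal 3.42 to 3.70 CPM, which limits what can be said of Ptgr1.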
